A study of Mus musculus with 6 samples.

Results

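The genes described here encode the proteins of the mitochondrial ribosome, called Mrpl for the large and Mrps for the small subunit. They were chosen by name: every gene whose symbol in the array platform's annotation begins with Mrpl or Mrps and a number, taken from probe sets (groups of short probes for 1 transcript) that list a single gene. This gave 74 genes, 47 of the large and 27 of the small subunit, of 12393 genes measured. The tested cells were mouse embryonic fibroblasts (MEFs), connective tissue cells grown from embryos and labelled wild type, which were starved for 6 h (3 arrays). The control cells were fibroblasts of the same label grown in normal medium (3 arrays). The labels name neither the nutrients withdrawn nor the strain or passage of the cells, and they number the arrays as biological replicates without stating separate cultures. The p-values therefore cover the spread among these arrays alone, part of which may be technical.

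Mitochondrial ribosomes translate the few proteins encoded by mitochondrial DNA, all of them subunits of the respiratory chain and ATP synthase. Their RNA comes from the mitochondrial genome, but all of their proteins are encoded in the nucleus, made on cytosolic ribosomes and imported. The small subunit binds the messenger RNA and holds the decoding site. The large subunit joins the amino acids and is anchored to the inner membrane at its exit tunnel. Some of the proteins descend from the bacterial ribosome and others are found only in mitochondria.

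Most genes of both subunits that changed were lower in starved fibroblasts, and a smaller group was higher. In the large subunit 21 of 47 genes fell, 4 rose and 22 did not pass the test. In the small subunit 17 of 27 genes fell, 3 rose and 7 did not pass. Among all 12393 genes 22.0% fell and 22.1% rose (limma, Benjamini-Hochberg adjusted p below 0.05). The fallen genes made up 44.7% of the large and 63.0% of the small subunit, above that background, and the risen ones 8.51% and 11.1%, below it. All differences given below are starved minus control on the log2 signal scale. The median difference was −0.18 for large subunit genes and −0.32 for small subunit genes, beside −0.05 over all genes, and a fall of at least 0.5 was reached by 9 large and 6 small subunit genes (7.42% of all genes). A rise of that size was reached by 1 large and 2 small subunit genes (10.9% of all genes). The plot of single differences shows that both subunits spread from clear falls to clear rises.

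**Figure D1:**
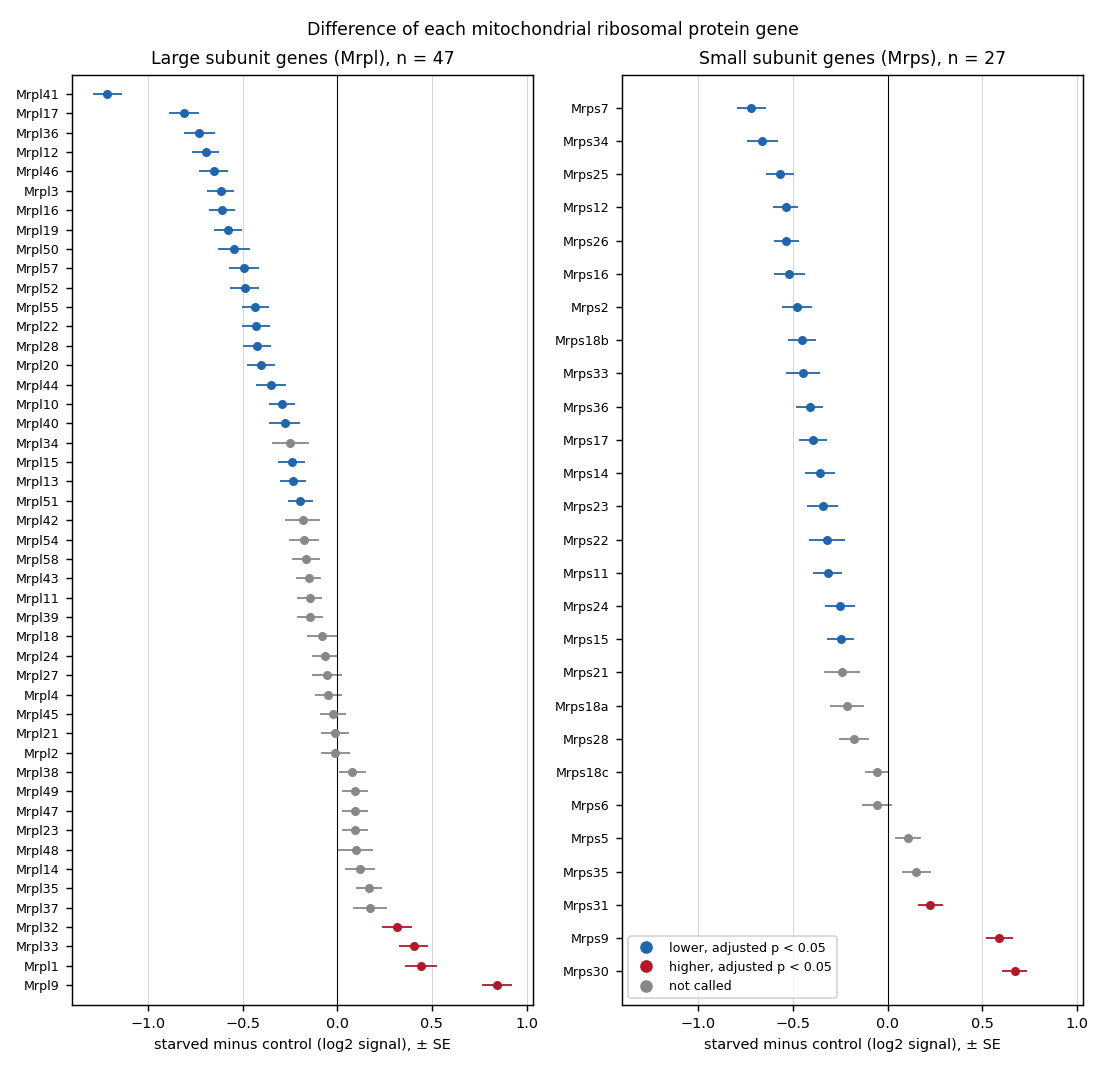
Difference in log2 signal, starved minus control, of each large (left) and small (right) subunit gene, with its SE as a bar; blue genes were lower, red genes higher and grey genes not called. Mrpl41 lies lowest at −1.21 and Mrpl9 highest at 0.84.

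The contrast between the subunits was described and not tested. The small subunit had the lower median in all fits by gene, but the order of the shares that fell turned under some settings. With the brightest probe set of each gene the small subunit had the lower median, and so it had on each of the 3 starved arrays (−0.20, −0.42 and −0.39, against −0.09, −0.21 and −0.23 for the large subunit, each relative to the control means). With the mean of each gene's probe sets, 59.3% of small and 46.8% of large subunit genes fell, with medians of −0.24 and −0.17, against 22.6% of all genes. When probe sets that can bind several transcripts were left out, 18 small and 41 large subunit genes remained measured, so the genes changed along with the probe sets. The small subunit genes lost were Mrps7, Mrps12, Mrps16, Mrps17, Mrps18b, Mrps23, Mrps24, Mrps33 and Mrps34, all of which had fallen. Of the large subunit genes lost, Mrpl20 and Mrpl55 had fallen, and Mrpl24, Mrpl37, Mrpl49 and Mrpl58 had not passed. Among the genes left, 38.9% of small and 43.9% of large subunit genes fell, against 21.0% of all genes. The medians were −0.20 and −0.18 against −0.05. The order of the shares thus turned there, as it did relative to the poly-A spike-ins (88.9% of small and 91.5% of large subunit genes). Cryo-electron microscopy structures place the products of Mrps30 and Mrps18a in the large subunit despite their names, and that of Mrps36 belongs to the 2-oxoglutarate dehydrogenase complex. With the genes placed in this way, 21 of 49 large and 16 of 24 small subunit genes fell, with medians of −0.18 and −0.33.

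**Figure D2:**
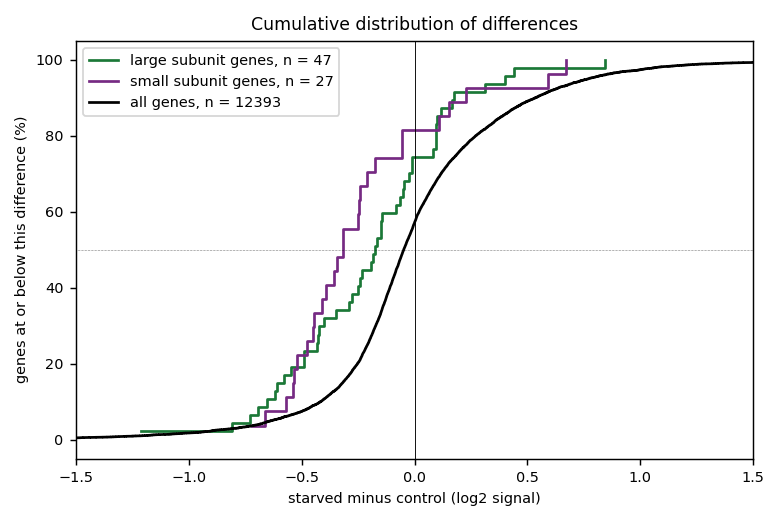
Cumulative share of genes (vertical axis, percent) at or below a given starved minus control difference in log2 signal (horizontal axis), for large subunit genes, small subunit genes and all genes; a few of all genes lie beyond the axis. The curve of either subunit crosses 50% left of the curve of all genes, at −0.32 for the small and −0.18 for the large subunit against −0.05.

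The direction of these changes is relative to the deposited scaling, since the authors' normalization gives all arrays nearly the same distribution of signals. Poly-A spike-ins, bacterial RNAs that are added to the sample before labelling, had a mean signal 0.43 higher on starved than on control arrays. Hybridization spike-ins, added after labelling, were 0.19 higher. The sources used here do not say whether spike-ins were added per mass of RNA or per cell, so values centred on them are not amounts per cell. Centring each array on the poly-A spike-ins gave 43 large and 24 small subunit genes lower, but 75.2% of all genes were lower as well. Mrpl9 and Mrps30 alone among the members were then higher, against 6.94% of all genes. Centring on the hybridization spike-ins gave 55 members lower and 4 higher (49.2% and 13.5% of all genes), and centring on the array median gave 47 and 7 (27.5% and 19.8%). Without the dimmest 40% of genes, 42 members fell and 8 rose, against 29.7% and 36.1% of the genes left. In these bulk cultures less RNA per cell and fewer cells of one kind cannot be told apart.

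**Figure D3:**
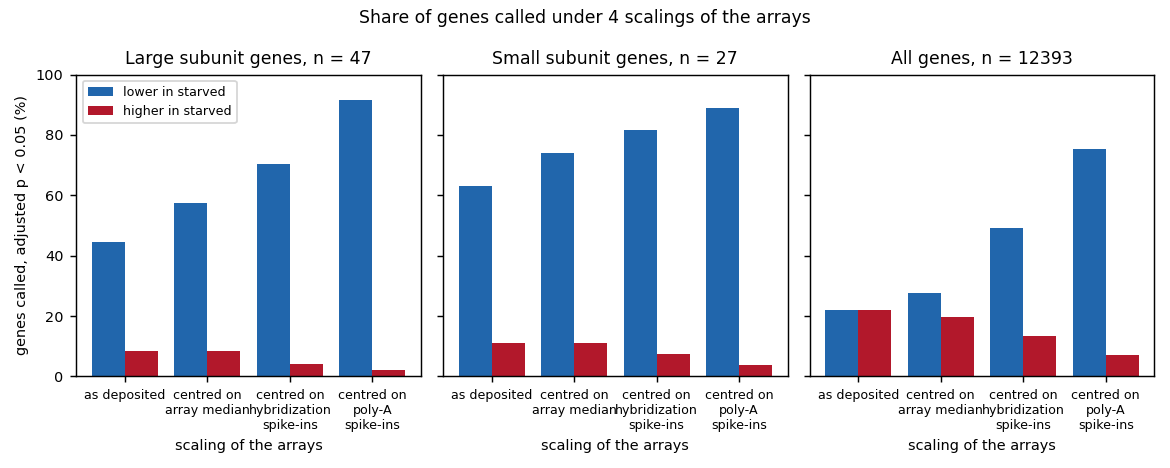
Share of genes (percent) called lower (blue) or higher (red) in starved cells when arrays were used as deposited or centred on their median, on the hybridization spike-ins or on the poly-A spike-ins. In the deposited scaling 44.7% of large and 63.0% of small subunit genes were lower against 22.0% of all genes, and with the poly-A spike-ins the share of all genes reached 75.2%.

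Promoters of the members were searched for motifs of factors known to act at genes for mitochondrial proteins. RefSeq promoter windows of build GRCm38.p6, which reach from 250 bases before to 50 after a transcript's start, were found for 65 of the 74 genes (71 windows). The letters GCGCA and GCGC with any 1 base between them, the site of the factor NRF1, stood on either strand in 12 windows (16.9%), against 7.96% of the windows of all measured genes. The letters CCGGAAG of the ETS family, which includes GABPA, stood in 24 (33.8%, against 14.0%), and AAGATGGC of YY1 in 11 (15.5%, against 3.6%). The E-box CACGTG stood in 7 (9.86%, against 9.11%), which belong to 5 genes, since Mrpl2 supplies 3 of them. A match is a run of letters and not a measured binding site. Windows of fallen, risen and uncalled members were also counted apart, with few risen genes. The NRF1 letters were in 5 of 35 windows of fallen, 3 of 7 of risen and 4 of 29 of uncalled members. The ETS letters were in 13, 1 and 10 of these windows.

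The 120 bases before the start are shown for 6 members chosen after their values were seen, to set matching letters of genes that fell (Mrpl17, Mrpl12, Mrpl36, Mrpl3) beside those of genes that rose (Mrpl9, Mrpl32). Capitals mark the matches within these bases: NRF1 in Mrpl17 (chr7:105811088-105811207, minus strand), Mrpl12 (chr11:120484517-120484636, plus), Mrpl9 (chr3:94443216-94443335, plus) and Mrpl32 (chr13:14613038-14613157, minus), the E-box and then YY1 in Mrpl36 (chr13:73330889-73331008, plus), and ETS in Mrpl3 (chr9:105053148-105053267, plus).
Mrpl17: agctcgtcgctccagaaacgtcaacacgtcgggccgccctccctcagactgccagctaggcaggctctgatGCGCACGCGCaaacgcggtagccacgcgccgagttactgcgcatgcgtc
Mrpl12: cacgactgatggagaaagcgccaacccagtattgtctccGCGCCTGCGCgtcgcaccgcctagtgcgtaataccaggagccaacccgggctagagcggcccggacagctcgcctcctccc
Mrpl36: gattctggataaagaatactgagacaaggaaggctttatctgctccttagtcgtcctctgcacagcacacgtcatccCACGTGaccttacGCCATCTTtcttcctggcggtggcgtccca
Mrpl3: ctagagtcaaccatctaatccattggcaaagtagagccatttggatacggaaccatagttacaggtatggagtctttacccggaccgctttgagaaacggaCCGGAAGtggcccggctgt
Mrpl9: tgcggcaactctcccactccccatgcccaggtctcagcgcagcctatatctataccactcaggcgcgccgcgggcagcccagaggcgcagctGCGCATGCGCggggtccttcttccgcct
Mrpl32: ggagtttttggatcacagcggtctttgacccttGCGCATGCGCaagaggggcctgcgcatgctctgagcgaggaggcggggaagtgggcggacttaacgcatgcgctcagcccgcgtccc

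The NRF1 match begins 28 bases before the start in Mrpl9 and 87 in Mrpl32, which rose, and 49 in Mrpl17 and 81 in Mrpl12, which fell.

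Among large subunit genes the deepest fall was that of Mrpl41, a mitochondria-specific protein that is also known to bind the survival factor BCL2. Its log2 signal was 8.59, 8.46 and 8.40 on starved arrays, against 9.77, 9.66 and 9.67 on control arrays. The groups lay more than 1 log2 unit apart, and the fall was 2.32-fold (difference −1.21, SE 0.08, adjusted p = 1.53e-06). Mrpl17, a homologue of bacterial L17, had 9.78, 9.55 and 9.60 on starved arrays and 10.47, 10.44 and 10.45 on control arrays (difference −0.81, SE 0.08, adjusted p = 2.35e-05). Starved replicate 1 lay nearest to the controls and still far below them. A dimmer probe set of Mrpl17 did not pass in a fit of each probe set on its own (−0.17, adjusted p = 0.148).

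Mrpl12 forms the flexible stalk that recruits translation factors and is also known to bind the mitochondrial RNA polymerase. It had 9.21, 9.13 and 9.07 on starved arrays against 9.81, 9.86 and 9.82 on control arrays, with no overlap (difference −0.70, SE 0.07, adjusted p = 3.03e-05). Of its partners at the base of the stalk, Mrpl10 fell less (−0.29, SE 0.07, adjusted p = 0.00663) and Mrpl11 did not pass (9.98 ± 0.06 against 10.12 ± 0.01, SD, n = 3 each, difference −0.15, adjusted p = 0.107). Thus 2 of these 3 stalk genes fell, against 22.0% of all genes, and the groups of Mrpl11 did not overlap either.

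The other large falls of this subunit were Mrpl36 (−0.73), a small homologue of bacterial L36, Mrpl46 (−0.65) of the central protuberance, and Mrpl3 (−0.62), Mrpl16 (−0.61) and Mrpl19 (−0.58), homologues of bacterial core proteins. Mrpl50 (−0.55) and Mrpl57 (−0.49), both mitochondria-specific, followed. On all of these 7 genes the starved arrays lay below the control arrays without overlap, as they did for 28.4% of all genes. Such a lack of overlap adds little here and below, where genes were named for the size of their change. The adjusted p of these 7 genes lay between 6.38e-05 for Mrpl16 and 0.000589 for Mrpl57. Mrpl44, which resembles ribonuclease III, fell by 0.35 (adjusted p = 0.0054). Smaller falls were less firm: Mrpl51 fell by 0.20 (adjusted p = 0.0351), a call that held in 1 of the 6 fits that each left out 1 array.

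**Figure D4:**
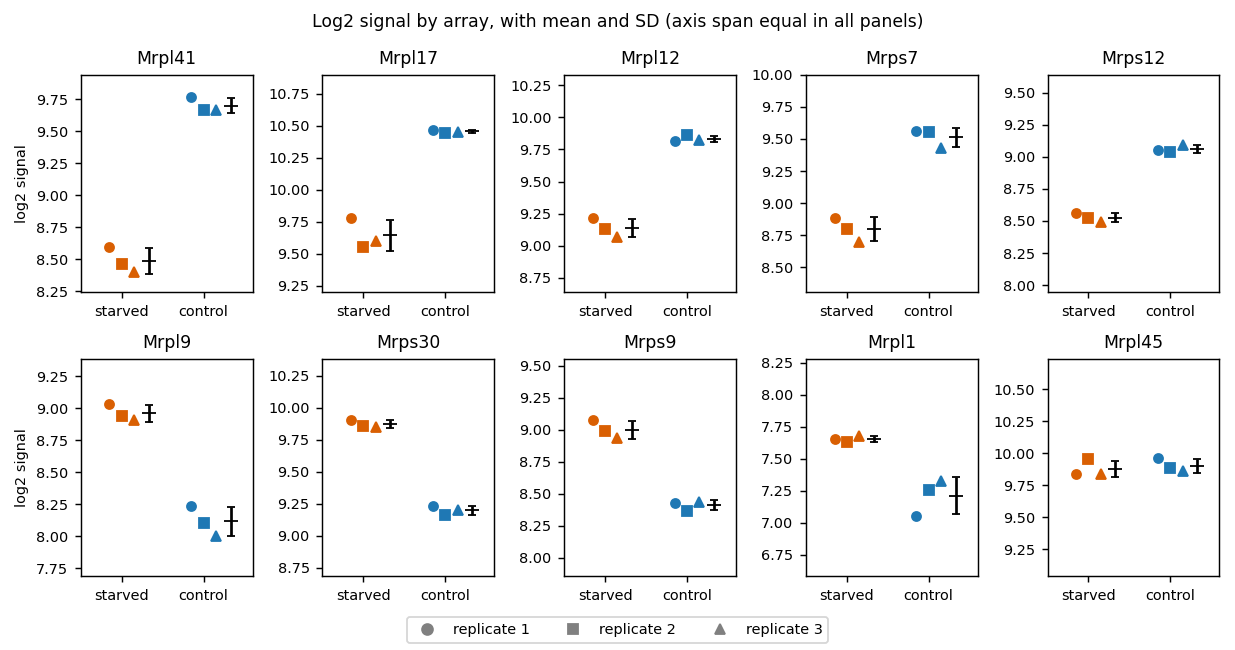
Log2 signal (vertical axis) of 10 members on each starved (orange) and control (blue) array, with the mean and SD as a black bar; symbols give the replicate and the axis span is equal in all panels. Starved arrays lie below all controls for Mrpl41, Mrpl17, Mrpl12, Mrps7 and Mrps12, above all controls for Mrpl9, Mrps30, Mrps9 and Mrpl1; for Mrpl45 the ranges of the groups overlap.

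Of the 4 large subunit genes that rose, Mrpl9, a homologue of bacterial L9, stood apart. It had 9.030, 8.942 and 8.903 on starved arrays and 8.234, 8.105 and 8.003 on control arrays, and both of its probe sets rose (0.84 with SE 0.08 and adjusted p = 2.18e-05 for the brighter, 0.56 for the other). It was also the large subunit gene that stayed higher relative to the poly-A spike-ins (0.42). Mrpl1, whose product sits at the ribosome's exit site for transfer RNA, had 7.65, 7.63 and 7.67 on starved arrays against 7.05, 7.26 and 7.33 on control arrays (0.44, adjusted p = 0.00172). That call rested on 1 of its 3 probe sets: the others did not pass (0.05 and −0.11), nor did the mean of the 3 (0.13).

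Mrpl33 (0.40, adjusted p = 0.00203) and Mrpl32 (0.31, adjusted p = 0.00835) rose with no overlap between groups. Mrpl32 encodes a protein whose cleavage by the inner membrane m-AAA protease is known to be needed for ribosome assembly. Relative to the poly-A spike-ins the differences of both genes were below 0 (−0.02 and −0.11).

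In the small subunit Mrps7, a homologue of bacterial S7 in the head of the subunit, fell most. Its log2 signal was 8.89, 8.80 and 8.70 on starved arrays against 9.56, 9.55 and 9.43 on control arrays (difference −0.72, SE 0.08, adjusted p = 4.78e-05). Mrps34, a mitochondria-specific protein, had 9.59, 9.45 and 9.37 on starved arrays and 10.21, 10.14 and 10.06 on control arrays (−0.66, adjusted p = 0.000105). Neither gene had overlapping groups.

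Mrps12, the homologue of the bacterial S12 protein of the decoding site, had 8.56, 8.53 and 8.49 on starved arrays against 9.05, 9.04 and 9.09 on control arrays (−0.54, SE 0.07, adjusted p = 0.00011). All 3 starved arrays lay below all 3 control arrays. Mrps25 (−0.57) and Mrps26 (−0.54), both mitochondria-specific, and Mrps16 (−0.52), Mrps2 (−0.48) and Mrps18b (−0.45), homologues of bacterial proteins, fell with adjusted p of 0.000836 or less. Mrps33 fell by 0.44 (adjusted p = 0.00262) and Mrps14, a homologue of bacterial S14, by 0.36 (adjusted p = 0.00436). Mrps36, whose product serves the 2-oxoglutarate dehydrogenase complex, fell by 0.41 (adjusted p = 0.00108). Mrps7, Mrps34, Mrps12, Mrps16, Mrps18b and Mrps33 had only a probe set that can bind several transcripts. The fit without such probe sets therefore did not measure these genes.

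The 3 risen Mrps genes were Mrps30, Mrps9 and Mrps31. Mrps30 had 9.91, 9.85 and 9.85 on starved arrays against 9.23, 9.16 and 9.20 on control arrays (0.67, SE 0.07, adjusted p = 2.65e-05), and it kept its call relative to the poly-A spike-ins (0.25, adjusted p = 0.03). The product of Mrps30 belongs to the large subunit. Mrps9, a homologue of bacterial S9, had 9.08, 8.99 and 8.94 on starved arrays against 8.42, 8.37 and 8.44 on control arrays (0.59, adjusted p = 8.94e-05), and 3 of its 4 probe sets rose. Relative to the poly-A spike-ins its difference was 0.17 and did not pass. Mrps31 rose by 0.23 (adjusted p = 0.018), a call lost without control replicate 1 (adjusted p = 0.0545) or control replicate 2 (adjusted p = 0.0756), with a difference of −0.20 relative to the poly-A spike-ins.

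Several members with known special roles did not pass. Mrpl45, the homologue of the membrane anchor of the yeast ribosome, had 9.84, 9.95 and 9.84 on starved arrays against 9.96, 9.88 and 9.86 on control arrays, so the groups overlapped (−0.02, SE 0.07, adjusted p = 0.82). Mrps18a (−0.21, adjusted p = 0.0839), Mrps5 (0.11, adjusted p = 0.215) and Mrpl49 (0.09, adjusted p = 0.29) did not pass either, though a dimmer probe set of Mrpl49 fell (−0.27, adjusted p = 0.0144 in a fit of each probe set on its own). Mrps27 was not analysed here. Over all members, the groups did not overlap for 46 genes that were lower and 13 that were higher in starved cells, against 28.4% and 25.7% of all genes.

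Of the 74 genes 33 had several probe sets, and 0 of these had probe sets called in opposite directions. Members that descend from bacterial ribosomal proteins and those found only in mitochondria gave similar counts. In these classes 22 of 44 and 16 of 30 fell, with a median of −0.24 in either, and 5 and 2 rose. The shares over all genes were 22.0% lower and 22.1% higher. All 4 risen Mrpl genes have bacterial homologues, and the 2 risen mitochondria-specific genes were Mrps30 and Mrps31. Since the product of Mrps30 belongs to the large subunit, this split holds for the gene names and not for the structure.

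The falls were shared by the 3 starved arrays but not equally deep on each. For 34 of the 38 fallen members starved replicate 1 was the starved array nearest to the control mean. Over the whole array this held for a smaller share, 1316 of the 2728 fallen genes. The median of all members relative to the control means was −0.14, −0.29 and −0.31 on starved replicates 1 to 3. For the 7 risen members starved replicate 1 was never the nearest, against 584 of the 2735 risen genes of the whole array. Without starved replicate 1, 25 large and 19 small subunit genes fell and 4 and 3 rose, against 22.1% of all genes that fell and 20.8% that rose, and the part of this array in the results was not tested further.

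**Figure D5:**
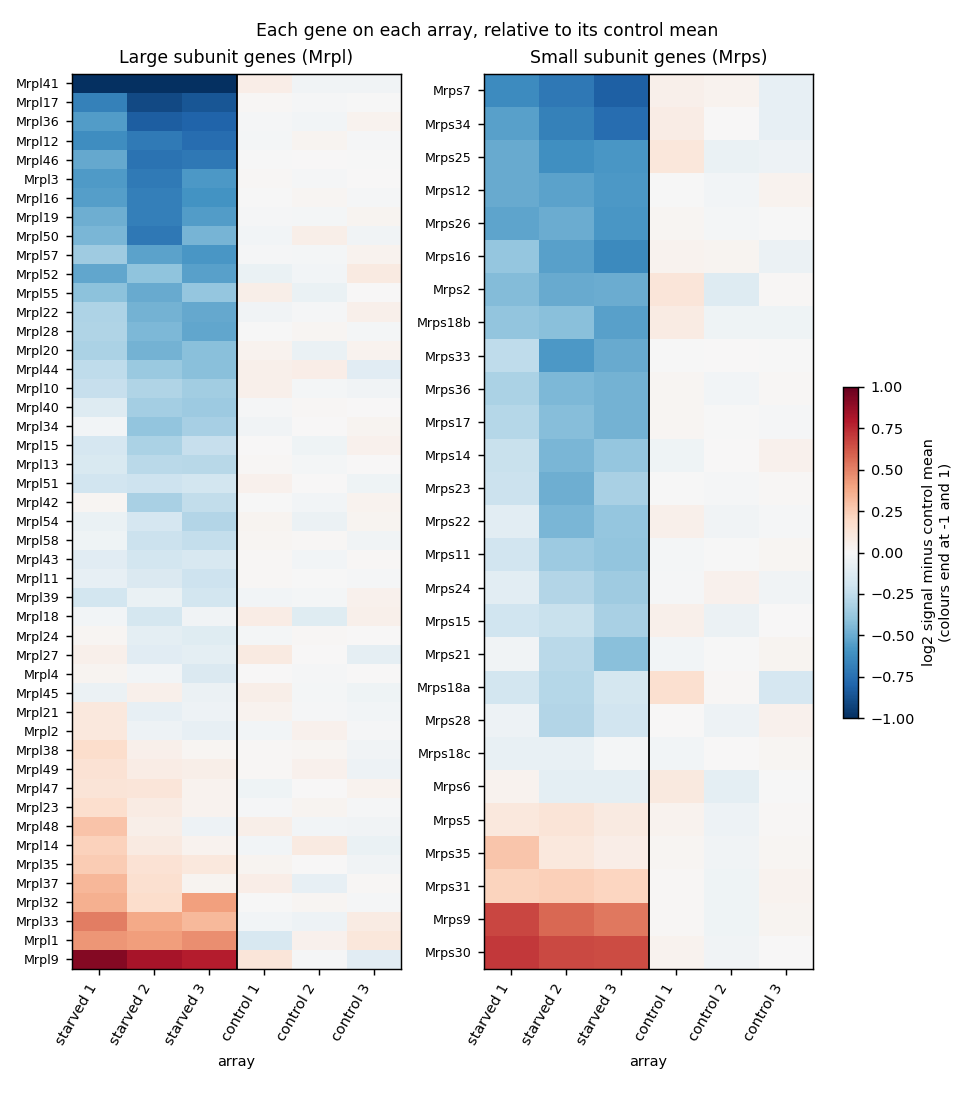
Log2 signal of each member on each array minus its mean over the control arrays, as colour, with starved arrays left of the line and control arrays right of it; genes are ordered by their difference within each subunit. Starved replicate 1 was the starved array nearest to the control mean for 34 of the 38 fallen members. The colours end at fixed limits, beyond which values look alike, as for Mrpl41 on the starved arrays.

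The lists that follow, of genes that work with the mitochondrial ribosome, were written with earlier results of these arrays known. Their counts stand beside 22.0% of all genes that fell and 22.1% that rose, and no list was tested as a set. Of 4 measured mitochondrial ribosomal proteins with other symbols, 2 fell: Ptcd3, a protein of the small subunit (8.87 ± 0.07 against 9.79 ± 0.04, SD, n = 3 each, difference −0.92, adjusted p = 4.78e-06), and Dap3, a GTP-binding small subunit protein also linked to cell death (−0.22, adjusted p = 0.0361). Of 9 genes of mitochondrial translation, which include Lrpprc, Slirp and Oxa1l beside translation factors, 5 fell and 0 rose, with a median of −0.35. Those that fell were Slirp (−0.35), the elongation factors Tufm (−0.38) and Gfm1 (−0.42), the ribosome recycling factor Gfm2 (−0.66) and Mtfmt (−0.54). Mtfmt formylates the initiator transfer RNA. Lrpprc, which stabilises mitochondrial messenger RNAs, did not pass (−0.14, adjusted p = 0.135).

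Factors that assemble the mitochondrial ribosome went both ways: 8 of 18 fell and 6 rose, against 22.0% and 22.1% of all genes. Their median was −0.01. The pseudouridine synthase family member Trub2 (−1.08), the RNA-binding protein Fastkd2 (−0.76) and the GTPase Noa1 (−0.67) fell. The ribosomal RNA methyltransferase Mrm1 (0.61), the pseudouridine synthase Rpusd4 (0.46) and Ptcd1 (0.49) rose. Relative to the poly-A spike-ins none of these 3 passed, with 0.19 for Mrm1, 0.03 for Rpusd4 and 0.07 for Ptcd1. Tfb1m, which methylates the small subunit RNA, did not pass (0.13, adjusted p = 0.186).

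Of 17 genes for mitochondrial DNA maintenance and transcription 10 fell and 1 rose, against 22.0% and 22.1% of all genes. Their median was −0.24. The mitochondrial RNA polymerase Polrmt fell by 0.56, its elongation factor Tefm by 0.68, the DNA-packaging factor Tfam by 0.52 and Trmt10c, a subunit of the mitochondrial RNase P, by 0.62. The risen gene was the RNA-degrading enzyme Pnpt1 (0.28, adjusted p = 0.0124). Of 9 genes that load mitochondrial transfer RNAs with amino acids 4 fell, led by Ears2 (−1.20) and Rars2 (−0.96), and Fars2 rose (0.54). These genes encode aminoacyl-tRNA synthetases, apart from Qrsl1 (−0.30), an amidotransferase subunit that is among those that fell. Cycs, cytochrome c, fell by 0.86.

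Among 10 regulators of mitochondrial biogenesis 3 fell and 2 rose. These shares, 30.0% and 20.0%, lay near those of all genes (22.0% and 22.1%). The coactivator Pprc1 had 7.90 ± 0.05 in starved and 9.08 ± 0.16 in control cells (SD, n = 3 each, difference −1.17, adjusted p = 4.58e-06). Myc (−0.83) and the coactivator Ppargc1b (−0.43) fell as well. The subunits of the ETS factor GABP rose, Gabpb1 by 0.64 and Gabpa by 0.34. Relative to the poly-A spike-ins neither passed, with 0.21 for Gabpb1 (adjusted p = 0.0792) and −0.08 for Gabpa (adjusted p = 0.494). Nrf1 (0.12, adjusted p = 0.211), Esrra (−0.07, adjusted p = 0.595) and Ppargc1a (−0.15, adjusted p = 0.359) did not pass.

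Of 45 genes with symbols of cytosolic ribosomal proteins 4 fell and 1 rose, against 22.0% and 22.1% of all genes. Their median was −0.03. In control cells 30 of the 45 were above 13 while all members lay between 7.21 and 11.5, and the part of signal level in these counts was not tested. Rpl12 (−1.31) and Rpl7l1 (−1.09) fell most and Rpl22l1 rose (0.60). The called genes all lay below 13 in control cells: Rpl12 at 7.23, Rps25 at 8.71, Rps6 at 9.61, Rpl7l1 at 10.18 and Rpl22l1 at 11.81.

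The arrays bore the marks of fibroblasts in both groups. Of 12 fibroblast markers 7 rose and 2 fell, against 22.1% and 22.0% of all genes. The risen ones included Col3a1 (0.59), Fn1 (0.52) and Col1a1 (0.47). Pdgfrb (−0.28) and Thy1 (−0.40) fell. Thy1 was dim in both groups (4.60 ± 0.04 in starved and 4.99 ± 0.04 in control cells). Markers of macrophages and blood (3.16 to 7.75), epithelia (3.39 to 5.19), endothelia (3.24 to 4.65) and pluripotent cells (3.25 to 4.81) were mostly dim in control cells. Nanog (6.32 in starved and 4.81 in control cells), Cdh1 (0.91) and Cd68 (0.44) rose and Cd14 (−0.46), Pecam1 (−0.27) and Kdr (−0.27) fell, and their part in the results on the mitochondrial ribosome was not tested.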

How the data were processed

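RNA of 3 starved and 3 control samples of mouse embryonic fibroblasts was measured on Affymetrix short-oligonucleotide arrays, 1 sample an array. The deposited values are log2 signals per probe set, which the authors made with affy and RMA (background correction, quantile normalization and summary over probes), per the submitters' processing notes, with no versions given in the sources used here. Precision is limited by the number of arrays, 3 in each group.

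From these values, a linear model of starved minus control without covariates (lmFit and eBayes of limma 3.58.1, run in R 4.3.3) tested 12393 genes, each by its brightest probe set among 20380 that list 1 gene. Probe sets with several genes (691), none (1555) and array controls (64) were left out. All p-values were adjusted by Benjamini-Hochberg over the 12393 genes, with a threshold of 0.05. The fit was tested on simulated data. Replicate numbers did not pair the arrays (correlation of same-numbered deviations −0.022 to 0.0021). Arrays correlated at 0.997 or more within groups and at 0.981 to 0.984 between them.

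Members named are the 10 largest falls and rises past the threshold in each subunit, the brightest and dimmest, and some with known roles. Of each other list up to 3 fallen and 3 risen genes with the smallest adjusted p are named, and some regulators whatever their values. The members and lists were chosen with earlier results of these data known. Gene names follow the platform annotation, and promoters come from RefSeq. Alternatives changed the scaling, the probe sets, the filter on dim genes, the model, the replicate block and the arrays left out.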

Additional observations from a re-analysis of the deposited data

Results flagged for a closer look

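The array controls, which enter no comparison of genes, differed between the groups. The 24 poly-A spike-in probe sets averaged 7.82, 7.96 and 7.76 on starved arrays, against 7.42, 7.43 and 7.41 on control arrays, a difference of 0.43. The 18 hybridization spike-in probe sets averaged 10.26, 10.37 and 10.32 on starved arrays, against 10.12, 10.12 and 10.14 on control arrays, a difference of 0.19. In both sets every starved array lay above every control array. Their part in the results on the mitochondrial ribosome was not tested beyond the centred values given with the results.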

How the results depend on the processing

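Of the counts and medians under an alternative, 126 stayed within a set limit of the reported value and 20 moved. The limit was a ratio of 1.5 for counts, and for medians the SD of the subunit's median over the 3 starved arrays. This limit is wide: 24 small subunit genes lower with the poly-A spike-ins, against 17 reported, counted as within it. Of the values of single genes 1301 kept their call or lack of one, 62 lost and 19 gained a call, and 9 called or newly called values turned. Of the 1301, 7 uncalled values changed sign: Mrps5, Mrpl49, Tfb1m and Nrf1 with the hybridization spike-ins, Mrpl49 with the mean of probe sets, and Mrpl45 and Esrra with 1 control array left out. Centring on the hybridization spike-ins gave 33 large subunit genes lower and 2 higher, 6102 and 1673 of all genes, and medians of −0.36 for the large and −0.51 for the small subunit. Centring on the poly-A spike-ins gave 43 large subunit genes lower, 1 higher in each subunit, 9321 of all genes lower and 860 higher, and medians of −0.60 and −0.74. It turned the differences of Mrpl33 (−0.023), Mrpl32 (−0.11), Mrps31 (−0.20), Mrps5 (−0.32), Mrpl49 (−0.33), Pnpt1 (−0.14), Gabpa (−0.082), Tfb1m (−0.30) and Nrf1 (−0.30). Without probe sets that can bind several transcripts, which left fewer genes, 7 small subunit genes fell with a median of −0.20. The small subunit genes lost from that fit had all fallen in the reported one. At a threshold of 0.01, 1782 genes of the array fell. With each probe set tested on its own, 38 Mrpl probe sets fell and 5 Mrps probe sets rose. These are counts of probe sets set against counts of genes, so they were bound to differ in size from the reported ones. The members had 127 probe sets, and of all 20380 tested 4183 were lower and 4156 higher. With the replicate number as a block 20 large and 17 small subunit genes fell, and 4 and 3 rose, against 21.0% and 21.5% of all genes. Leaving out 1 array at a time gave 17 to 25 large and 14 to 19 small subunit genes lower (17.6% to 22.1% of all genes). In these fits 4 large and 2 to 3 small subunit genes were higher (19.0% to 22.2% of all genes). The medians were −0.23 to −0.15 and −0.41 to −0.27. Causes were not tested. Signals near the bottom of the arrays limit what dim probe sets can show.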

Other observations

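Probe sets that list a member together with another gene were left out of the comparison. That of Mrps34 and Nme3 had a mean log2 signal of 7.78 in starved and 8.03 in control cells, a difference of −0.24. That of Mrpl53 and Ccdc142 had 10.11 in starved and 10.23 in control cells, and that of Mrpl30 and Gm6238 had 10.90 in starved and 10.94 in control cells.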
